A study of Mus musculus with 117 samples.

Results

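Stable state 9 regions are the stretches of the mouse autosomes that carried chromatin state 9 in nearly every one of 9 inbred strains. They were chosen by a count over strains: an autosomal bin of 200 bp was a member where at least 7 of the 9 strain segmentations gave it state 9, and adjacent member bins were merged. The rule selected 50008 of 12313718 autosomal bins (0.406%), which formed 10010 of the 439461 regions that the same rule gives over all 14 states. The regions together covered 10.002 Mb. The values that chose them were the state numbers themselves, so how often the member bins carried state 9 is a description and was not tested.

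The study profiled hepatocytes, which make up most of the liver's mass, by chromatin immunoprecipitation sequencing in female mice aged 12 weeks. The strains were C57BL/6J, NZO/HlLtJ, DBA/2J, A/J, NOD/ShiLtJ and 129S1/SvImJ, beside WSB/EiJ, PWK/PhJ and CAST/EiJ, and no label names a treatment. Each strain had libraries from 3 mice for each of 4 histone marks, H3K27ac, H3K27me3, H3K4me1 and H3K4me3, and 1 input library, 117 libraries in all. The deposited segmentation of a strain joins its mice, so each strain gives 1 value, the spread between mice is unknown, and every SD below is between strains.

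A chromatin state is a recurring combination of histone marks, learned by a segmentation program and written as a number. At promoters in use, nucleosomes around the transcription start typically carry H3K4me3 and H3K27ac, while H3K4me1 is commonly found on the shoulders of the promoter and at enhancers, and H3K27me3 is laid down by the Polycomb machinery at silenced developmental genes. The sources used here do not say which marks define which number, so a state number is only a name in what follows and no mark is assigned to state 9.

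The sequences that carry the main patterns are the promoters inside the regions, the promoters that the regions flank, and the promoters of strongly hepatocyte-specific genes that have no region. All are from RefSeq, build GRCm38.p6, which is the same assembly as the mm10 named in the submitters' processing notes. Each run is the 250 bases before a transcription start, 5′ to 3′ on the gene's own strand. Capitals mark matches, on either strand and with overlaps joined, to any of 16 short motifs of transcription factors or of the core promoter that are spelled out further on. The first set has its start inside a region, listed by the length of that region. Ccdc78 (chr17:25786330-25786579, plus strand), Tmem262 (chr19:6079788-6080037, plus strand), Slc35g3 (chr11:69761845-69762094, minus strand) and Slx4 (chr16:4001679-4001928, minus strand) read:
Ccdc78: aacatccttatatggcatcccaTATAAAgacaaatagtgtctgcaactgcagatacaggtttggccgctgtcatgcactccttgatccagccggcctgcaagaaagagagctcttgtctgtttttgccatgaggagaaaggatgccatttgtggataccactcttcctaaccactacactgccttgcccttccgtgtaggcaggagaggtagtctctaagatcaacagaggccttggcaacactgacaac
Tmem262: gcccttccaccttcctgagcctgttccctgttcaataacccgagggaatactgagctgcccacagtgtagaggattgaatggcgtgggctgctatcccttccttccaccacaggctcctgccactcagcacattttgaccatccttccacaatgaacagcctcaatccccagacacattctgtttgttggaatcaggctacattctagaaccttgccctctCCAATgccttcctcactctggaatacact
Slc35g3: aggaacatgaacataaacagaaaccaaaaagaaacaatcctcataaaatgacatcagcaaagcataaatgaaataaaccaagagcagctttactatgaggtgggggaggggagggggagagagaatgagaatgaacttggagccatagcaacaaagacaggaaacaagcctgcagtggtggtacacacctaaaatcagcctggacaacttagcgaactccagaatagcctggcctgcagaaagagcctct
Slx4: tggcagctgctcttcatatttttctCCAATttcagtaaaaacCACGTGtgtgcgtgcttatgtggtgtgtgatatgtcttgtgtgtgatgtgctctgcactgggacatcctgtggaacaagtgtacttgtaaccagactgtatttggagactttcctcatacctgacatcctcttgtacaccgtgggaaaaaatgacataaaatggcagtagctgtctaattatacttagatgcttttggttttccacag

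The second set comes from promoters in state 3 in all 9 strains with a region within 5 kb. Polr2a encodes the catalytic subunit of RNA polymerase II (chr11:69758634-69758883, minus strand), Tbp encodes the TATA-binding protein (chr17:15499638-15499887, plus strand), and Chmp2a encodes a subunit of the membrane-remodelling ESCRT machinery (chr7:13034778-13035027, minus strand). Wdr46 (chr17:33940473-33940722, plus strand) and Abtb1 (chr6:88841936-88842185, minus strand) have regions on both sides and were picked for a match to the ETS site CCGGAAG. These 5 read:
Polr2a: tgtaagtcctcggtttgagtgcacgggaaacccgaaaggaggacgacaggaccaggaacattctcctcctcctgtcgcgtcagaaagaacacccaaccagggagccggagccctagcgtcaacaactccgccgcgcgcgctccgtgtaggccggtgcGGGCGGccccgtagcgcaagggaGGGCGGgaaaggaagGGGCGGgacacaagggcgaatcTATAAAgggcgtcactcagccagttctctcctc
Tbp: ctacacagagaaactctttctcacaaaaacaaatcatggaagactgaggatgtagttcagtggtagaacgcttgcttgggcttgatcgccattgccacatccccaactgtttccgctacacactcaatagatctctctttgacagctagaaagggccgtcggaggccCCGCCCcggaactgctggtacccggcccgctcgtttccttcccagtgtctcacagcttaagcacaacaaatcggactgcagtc
Chmp2a: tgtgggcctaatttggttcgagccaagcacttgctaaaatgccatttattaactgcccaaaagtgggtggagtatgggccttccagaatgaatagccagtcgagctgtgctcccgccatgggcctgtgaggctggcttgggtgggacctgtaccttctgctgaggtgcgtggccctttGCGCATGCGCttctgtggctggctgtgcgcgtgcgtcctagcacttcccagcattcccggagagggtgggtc
Wdr46: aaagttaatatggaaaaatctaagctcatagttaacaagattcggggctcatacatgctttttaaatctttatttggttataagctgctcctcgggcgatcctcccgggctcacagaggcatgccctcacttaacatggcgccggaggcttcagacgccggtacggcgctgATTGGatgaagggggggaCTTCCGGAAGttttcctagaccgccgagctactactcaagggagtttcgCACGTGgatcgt
Abtb1: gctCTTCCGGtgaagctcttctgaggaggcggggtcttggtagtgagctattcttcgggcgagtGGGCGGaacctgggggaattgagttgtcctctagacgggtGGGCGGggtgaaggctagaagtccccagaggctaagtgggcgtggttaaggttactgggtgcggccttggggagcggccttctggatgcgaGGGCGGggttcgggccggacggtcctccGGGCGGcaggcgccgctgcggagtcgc

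The third set has a state 3 start in all 9 strains and no region within 5 kb. Alb encodes serum albumin (chr5:90460620-90460869, plus strand), Apoa1 the main protein of high-density lipoprotein (chr9:46228380-46228629, plus strand), and Apoa2 a second apolipoprotein of the same particle (chr1:171224804-171225053, plus strand). They read:
Alb: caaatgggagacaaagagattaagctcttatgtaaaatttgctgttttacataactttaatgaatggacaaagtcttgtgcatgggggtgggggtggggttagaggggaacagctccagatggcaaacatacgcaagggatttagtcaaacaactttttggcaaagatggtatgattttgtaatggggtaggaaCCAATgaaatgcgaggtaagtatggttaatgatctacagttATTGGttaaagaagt
Apoa1: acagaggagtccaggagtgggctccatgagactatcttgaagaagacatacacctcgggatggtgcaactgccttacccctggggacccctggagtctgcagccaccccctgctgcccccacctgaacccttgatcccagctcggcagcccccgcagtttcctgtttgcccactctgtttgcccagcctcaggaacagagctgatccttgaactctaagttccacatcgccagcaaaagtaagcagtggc
Apoa2: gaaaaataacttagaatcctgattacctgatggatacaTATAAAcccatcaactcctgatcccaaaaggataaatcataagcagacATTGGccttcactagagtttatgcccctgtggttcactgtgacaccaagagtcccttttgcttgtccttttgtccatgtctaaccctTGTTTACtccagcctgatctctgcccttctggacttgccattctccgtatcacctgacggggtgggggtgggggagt
These printed examples differ in their letters. The 250 bases of Polr2a held 23 CpG dinucleotides, those of Wdr46 16, Tbp 11 and Chmp2a 10, while Alb and Apoa2 held 2 each and Slc35g3, inside its region, held 1. The other promoters inside a region that were read held 0 at Pcp2, 2 at Zfp626, 3 at Atp6v1fnb and 14 at Hsf2bp. Not all promoters inside a region were read in this way. The third set holds 3 hepatocyte genes picked as examples. Over all stable state 3 starts, the ratio of observed to expected CpG had medians of 0.850 with and 0.810 without a region within 5 kb.

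The regions were short. Their median length was 800 bp, with an interquartile range of 400 to 1400 bp, and the longest spanned 8000 bp. Single bins made up 1792 of them (17.9%). A bin in state 9 in all 9 strains occurred in 4152 regions (41.5%), and 221 regions were in state 9 throughout in every strain. At the threshold, 15873 bins carried state 9 in exactly 7 strains and were members, and 15520 bins carried it in exactly 6 and were not. Of the 268547 autosomal bins that carried state 9 in any strain, 18.6% were members, and 104282 carried it in 1 strain only.

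The strains differed widely in how much state 9 they had. Its share of autosomal bins was lowest in PWK/PhJ (0.271%), had a median of 0.806% and was highest in NOD/ShiLtJ (1.59%). The member bins were in state 9 in 37.5% of cases in PWK/PhJ and in 89.1% to 97.5% in the other 8 strains, and 62.9% of the regions had any state 9 bin in PWK/PhJ. The state 9 segments that touched a region had a mean length of 761 bp in PWK/PhJ and 2723 bp in NOD/ShiLtJ, with a median over strains of 1566 bp. The regions are thus the shared core of segments whose ends lay farther out in NOD/ShiLtJ and, where present at all, closer in for PWK/PhJ. PWK/PhJ thus stood apart from the others before any result below, and where leaving it out turned the direction of a difference, the value without it is also given.

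Recurrence was measured in a strain that had no part in the choice: bins were taken where at least 7 of the other 8 strains had state 9, and the left-out strain was read at those bins. On average 85.7% ± 19.9 of the bins were in state 9 in the left-out strain (SD, n = 9 strains), against its autosomal share of 0.814% ± 0.368. The left-out strain was in state 9 at 93.8% of such bins for 129S1/SvImJ, 95.01% for A/J, 86.0% for C57BL/6J, 91.8% for CAST/EiJ, 93.4% for DBA/2J, 94.7% for NOD/ShiLtJ, 96.4% for NZO/HlLtJ, 33.6% for PWK/PhJ and 86.7% for WSB/EiJ. All 9 strains were above their own share (exact sign-flip permutation test, two-sided, p = 0.0039, the smallest that 9 strains allow). The left-out strains share most of the strains that chose their bins. The 9 values are therefore not independent, here and in the comparison of states below. Without PWK/PhJ the mean was 92.2% ± 3.85 (SD, n = 8 strains).

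**Figure D1:**
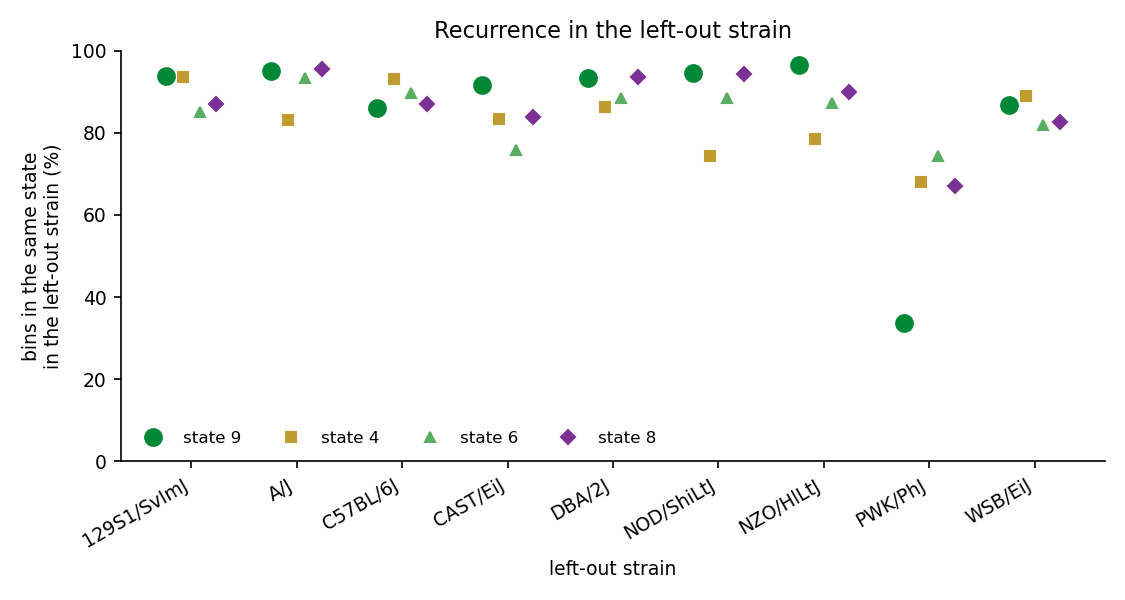
Percentage of bins in the same state in the left-out strain (vertical axis) for each left-out strain (horizontal axis), where at least 7 of the other 8 strains had state 9, 4, 6 or 8, each state with its own symbol and 1 point per strain. State 9 lies at 86.0% or above in 8 strains and at 33.6% in PWK/PhJ. PWK/PhJ is also the lowest strain for state 4 (68.1%), state 6 (74.2%) and state 8 (67.0%).

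The recurrence of state 9 was set beside that of states 4, 6 and 8, measured the same way. Those gave 83.3% ± 8.49, 84.9% ± 6.47 and 86.8% ± 8.71 (SD, n = 9 strains each). State 9 differed from them by 2.42, 0.79 and -1.04 percentage points, with an SD of the paired difference of 16.5, 16.4 and 12.6 points (exact sign-flip permutation test, Benjamini-Hochberg adjusted p = 0.949 for each of the 3). None of the differences exceeded the spread between strains. Without PWK/PhJ they were 7.04, 5.96 and 3.00 points, so that the direction against state 8 turned (exact permutation test, n = 8 strains, adjusted p = 0.109, 0.0703 and 0.109). The drop in PWK/PhJ was deepest for state 9: there state 4 recurred at 68.1%, state 6 at 74.2% and state 8 at 67.0% of bins. PWK/PhJ was the lowest strain for each of these states too, with the next lowest at 74.4%, 75.8% and 82.7%.

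What a strain had in place of state 9 was mostly state 14 or state 8. In PWK/PhJ, 91.7% of the lost bins carried state 14, the state that fills 76.6% ± 1.48 of the autosomes (SD, n = 9 strains), and 2.24% carried state 8. State 14 also took 70.0% of the lost bins in C57BL/6J and 73.0% in WSB/EiJ. In NOD/ShiLtJ, the strain richest in state 9, 79.6% of the lost bins carried state 8 and 4.75% carried state 14. The other strains lay between, with state 8 at 33.4% to 65.5% and state 14 at 19.7% to 35.8% of their lost bins. State 3 took 11.8% ± 8.44 of the lost bins over all strains (SD, n = 9 strains), from 0.790% in PWK/PhJ to 24.2% in 129S1/SvImJ. These shares have no test of their own.

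The regions sat on the shoulders of promoters. Start sites of protein-coding genes were taken from the RefSeq promoter table, which gave 20084 starts for 16456 of 20661 autosomal protein-coding genes (79.6%), on 18 of the 19 autosomes. On those chromosomes, 7501 of 9734 regions (77.1%) had their centre within 5 kb of a start, at a median distance of 2428 bp over all of them. The same held for 6.87% of sampled autosomal bins, with a median of 91357 bp. Stable state 8 regions were placed much alike, with 70.0% within 5 kb, whereas 8.14% of stable state 4 regions and 4.74% of stable state 6 regions were. These percentages describe the mapped positions and were not tested.

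The genes without a listed start matter for these shares. Of the 2233 regions farther than 5 kb from any listed start, 1325 (59.3%) lay within 5 kb of an end of a protein-coding gene that has no listed start. Where the nearest protein-coding gene did have one, 90.5% of 8050 state 9 regions were within 5 kb of a start, beside 82.4% for state 8, 9.75% for state 4 and 5.72% for state 6. Chosen without PWK/PhJ, as at least 7 of the other 8 strains, the regions had 77.5% within 5 kb of a listed start.

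Most lay beside the start rather than on it. The centre of 68.5% of the regions lay 1 to 4 kb from the nearest start, where 4.08% of sampled autosomal bins lay, and that of 6.92% within 1 kb, where 1.49% of those bins lay. Upstream of the start there were 3558 regions at a median distance of 1651 bp (interquartile range 1237 to 2162 bp), and downstream 3943 at a median of 2472 bp (1948 to 2936 bp). The downstream shoulder was therefore farther from the start than the upstream one. Stable state 8 regions lay closer in on both sides, at medians of 978 bp upstream and 1745 bp downstream.

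**Figure D2:**
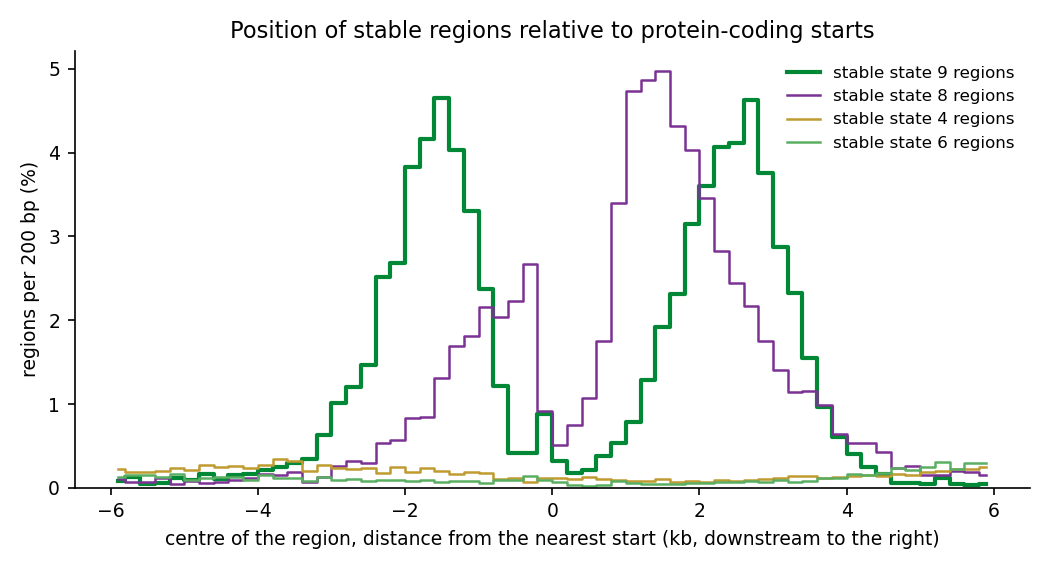
Position of the centre of each stable region relative to the nearest protein-coding start (horizontal axis, kb, downstream to the right), as the percentage of that state's regions in each 200-bp step (vertical axis). State 9 forms a peak on each side of the start with medians of 1651 bp upstream and 2472 bp downstream, state 8 lies nearer to the start, and states 4 and 6 show no peak.

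States 8, 3, 1 and 11 were more frequent directly beside the regions than on the autosomes as a whole. In the first bin on either side, state 9 itself went on in 48.2% of cases, because a strain's own segment often ran past the shared core. State 8 took 23.5% ± 4.07, which is 34.2 times its autosomal share of 0.686%. State 3 took 4.49% ± 1.51 against 0.410%, state 1 took 4.87% ± 1.31 against 2.51%, and state 11 took 0.409% ± 0.231 against 0.0457% (SD, n = 9 strains each). All 9 strains were above the autosomal share for each of these 4 states (exact sign-flip permutation test, adjusted over 13 states, p = 0.0056).

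Other states were scarce at the borders. State 9 itself filled 19.0% to 61.9% of these bins over the strains, which leaves less room for every other state. The lower share of state 14 was therefore in part fixed in advance. State 14 took 16.9% ± 14.98 against 76.6%, state 13 took 0.0744% against 11.1%, and state 2 took 0.0760% against 2.30%, each lower in 9 of 9 strains (exact sign-flip permutation test, adjusted p = 0.0056). States 4 and 6 were lower in 8 of 9 strains (exact permutation test, adjusted p = 0.0092). For state 12, 0.101% against 0.0753%, the difference did not pass (exact permutation test, adjusted p = 0.234). State 14 beside the regions ranged from 1.59% in NOD/ShiLtJ to 48.9% in PWK/PhJ, the same 2 strains that had the most and the least state 9, and PWK/PhJ was also highest for state 6 there, at 3.20% against 0.0549% to 0.460% in the others. With only the regions in state 9 in all 9 strains, state 1 beside them differed from its autosomal share by -0.430 points (exact permutation test, adjusted p = 0.141).

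The borders were also set beside those of stable state 6 and 8 regions. These shares count all bins beside a region, those that carry on its own state among them. A difference in how often the own state runs on therefore also moves them. Beside stable state 6 regions, state 14 took 42.8% ± 5.06, so that state 9 differed from it by -25.9 points (higher in 1 of 9 strains, exact sign-flip permutation test, adjusted p = 0.0104). Beside stable state 8 regions it took 3.10% ± 2.08, and state 9 differed from it by 13.8 points (higher in 8 of 9 strains, exact permutation test, adjusted p = 0.0104). States 1 to 3 together took 9.43% ± 2.69 beside state 9 and 29.9% ± 6.84 beside state 8 (exact permutation test, adjusted p = 0.0104, lower in 9 of 9 strains). Beside state 6 they took 9.61% ± 3.58, and that difference of -0.174 points did not pass (exact permutation test, adjusted p = 0.813). Without PWK/PhJ it was 0.136 points (exact permutation test, adjusted p = 0.852).

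The 2 sides of a region were not alike. For the 7501 regions within 5 kb of a start, the border facing the start was read apart from the border facing away. State 8 took 40.1% ± 6.51 of the bins facing the start and 7.75% ± 2.13 of those facing away. State 1 took 8.10% ± 2.31 and 1.15% ± 0.289, and state 3 took 6.92% ± 2.26 and 1.76% ± 0.861 (SD, n = 9 strains each). State 14 went the other way, with 3.02% ± 5.53 facing the start and 30.1% ± 25.7 facing away. Each of the 4 differences had the same sign in 9 of 9 strains (exact sign-flip permutation test, adjusted p = 0.0039). On the outer side, PWK/PhJ was the strain with the most state 14 (80.5%) and NOD/ShiLtJ the one with the least (1.51%). Without PWK/PhJ state 14 took 1.198% ± 0.981 facing the start and 23.8% ± 18.7 facing away (SD, n = 8 strains), and all 4 differences still passed (exact permutation test, adjusted p = 0.0078).

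**Figure D3:**
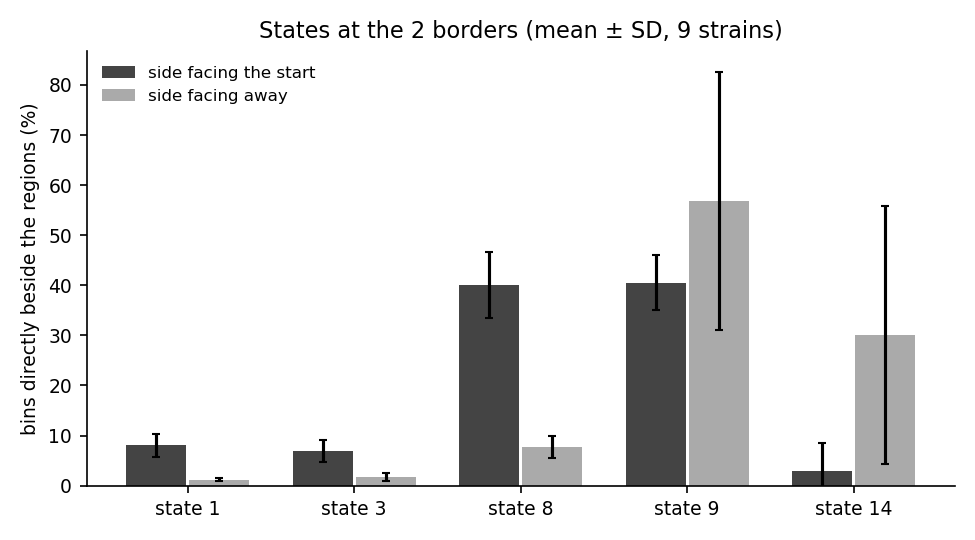
States of the first 200-bp bin on each border of the 7501 regions within 5 kb of a protein-coding start (vertical axis, percentage of bins, mean and SD over 9 strains), with the border facing the start and the border facing away as separate bars. State 8 is at 40.1% facing the start and 7.75% facing away, and state 14 at 3.02% and 30.1%.

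Averaged over starts, the states peaked one after another from the start outwards. A start was called a stable state 3 start where at least 7 strains had state 3 in its bin, which gave 7445 starts. Of these, 4969 (66.7%) had a region within 5 kb, and 1979 had one on both sides. At those 4969 starts, state 1 peaked 600 bp upstream (67.3% ± 2.98 of starts) and 800 bp downstream (68.9% ± 3.37). State 8 peaked 1200 bp upstream (20.1% ± 3.20) and 1400 bp downstream (45.6% ± 4.83). State 9 peaked 2000 bp upstream (47.4% ± 12.3) and 2800 bp downstream (46.3% ± 13.5), and state 14 was the most frequent state at 6000 bp on both sides (69.5% ± 6.19 and 60.8% ± 8.75; SD, n = 9 strains). The picking of these starts fixes state 3 at the start, state 9 within 5 kb and the height of the state 9 peak, so that the order is in part built in.

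The other 2476 stable state 3 starts had a broader inner zone. State 1 reached 70.2% ± 2.24 at 600 bp upstream and 71.9% ± 2.89 at 1200 bp downstream. State 8 peaked farther out, at 2000 bp upstream (12.0% ± 3.29) and 2200 bp downstream (28.7% ± 5.16). State 14 at 6000 bp was lower than beside the flanked starts, at 50.9% ± 3.76 upstream and 25.4% ± 3.95 downstream (SD, n = 9 strains each). State 4 reached 13.9% ± 4.13 at 4400 bp upstream and state 6 reached 14.3% ± 3.25 at 5800 bp downstream. The lack of state 9 there is fixed by how the starts were picked, and the differences between the profiles were not tested.

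**Figure D4:**
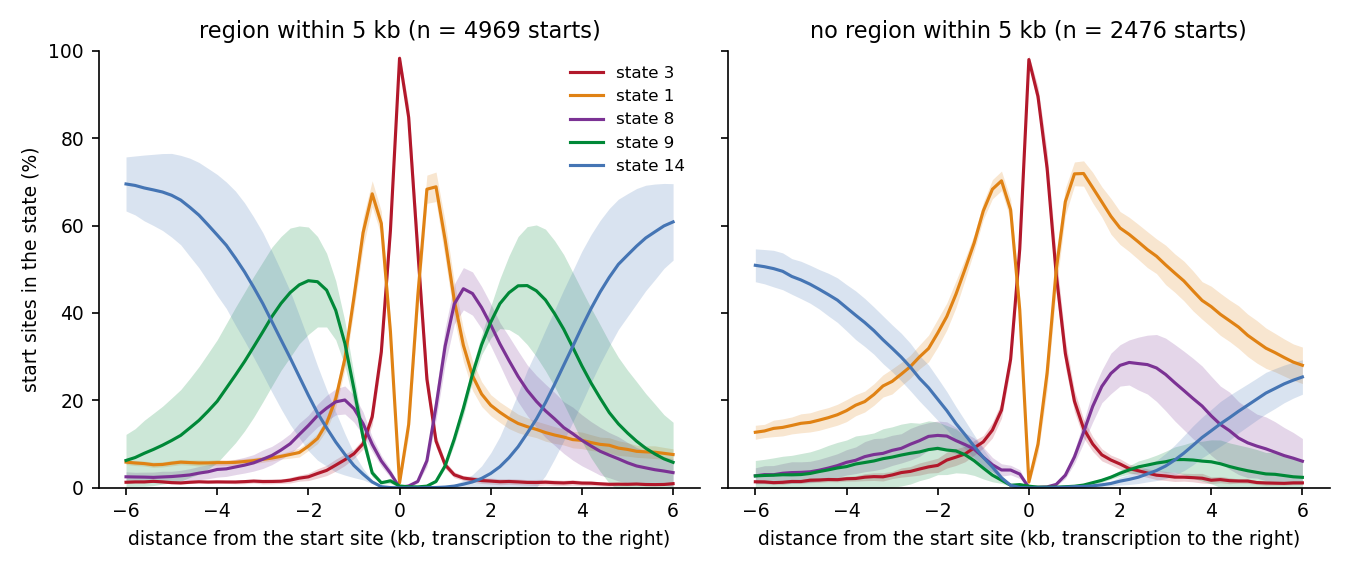
Percentage of stable state 3 starts in states 3, 1, 8, 9 and 14 (vertical axis) by distance from the start (horizontal axis, kb, transcription to the right), for starts with a region within 5 kb (left panel) and without (right panel). Lines are means and bands are the SD over 9 strains. In the left panel the peaks follow each other outwards as state 3, 1, 8 and 9, with state 9 at 47.4% upstream and 46.3% downstream. State 14 is highest at 6000 bp on both sides, the largest distance read. The order is in part built in by how the starts were picked.

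The state of the start itself went with the presence of a region. Of all 20084 starts, 7017 (34.9%) had a region within 5 kb, 2547 upstream only, 1825 downstream only and 2645 on both sides. At starts with a region, 74.6% ± 2.14 were in state 3 and 13.998% ± 1.48 in state 1, against 20.6% ± 0.786 and 9.49% ± 0.714 at starts without one. State 14 was at 2.31% ± 0.461 against 35.5% ± 1.75, and state 13 at 0.312% ± 0.0359 against 15.3% ± 1.00 (SD, n = 9 strains each). All 4 differences had the same sign in 9 of 9 strains (exact sign-flip permutation test, adjusted p = 0.0039). Of the 10851 starts that were in state 3 in no strain, 1119 (10.3%) had a region. Whether the calls of neighbouring bins were made jointly is not given in the sources used here, so the states of a start and of its shoulders may not be separate measurements.

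Maps of single genes show this order and departures from it. At Vps29, a subunit of the retromer sorting complex, DBA/2J ran from 5 kb upstream to 6 kb downstream through state 14 (2400 bp), state 9 (1600 bp), state 8 (400 bp), state 1 (600 bp), state 3 (600 bp), state 1 (400 bp), state 8 (1000 bp), state 9 (2800 bp) and state 14 (1400 bp). NOD/ShiLtJ had the same order with state 9 over 3200 bp upstream and, up to the edge of the window, 4200 bp downstream. PWK/PhJ kept 800 bp of state 9 upstream and had none downstream, where state 8 passed into state 6 and state 14. C57BL/6J kept 200 bp upstream. In PWK/PhJ and WSB/EiJ the upstream side passed from state 9 to state 1 with no state 8, and in C57BL/6J, CAST/EiJ and NZO/HlLtJ states 8 and 9 alternated downstream. At Alb no strain had state 9 in this window, which in DBA/2J held state 2 (1000 bp), state 1 (1200 bp), state 2 (600 bp), state 1 (2200 bp), state 3 (1400 bp) and state 1 (4800 bp).

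Few starts lay inside a region: 136 of the 20084. The 10 genes with the most member bins within 1 kb of a start were Slc35g3, Tmem262, Zfp626, Hsf2bp, Pcp2, Pspn, Slx4, Atp6v1fnb, Igflr1 and Lck. Slc35g3 (a member of a solute carrier family) had 11 state 9 bins there in each of 8 strains and none in PWK/PhJ. Tmem262 had the same values, 11 in 8 strains and 0 in PWK/PhJ. Slx4, a scaffold for DNA repair nucleases, had 5 in PWK/PhJ, a median of 10 and at most 10, and its start was in state 9 in all 9 strains, as was that of Pspn. Hsf2bp, a meiotic recombination factor, was the exception in which C57BL/6J was lowest, with 3 bins against a median of 10, and its start was in state 14 there. Lck, the T cell kinase, had 2 in PWK/PhJ, a median of 9 and at most 10. At the starts of 7 of these 10 genes, PWK/PhJ carried state 14 and the other 8 strains state 9.

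The surroundings of such starts differed from gene to gene. The region over the Slc35g3 start also holds the 17 member bins upstream of Polr2a. In WSB/EiJ the stretch from 5 kb upstream to 6 kb downstream of the Slc35g3 start read state 1 (600 bp), state 3 (600 bp), state 1 (600 bp), state 9 (5000 bp), state 1 (1000 bp) and state 3 (1000 bp), followed by states 1 and 8. State 9 thus filled the space between 2 neighbouring promoters. In PWK/PhJ the same space held 800 bp of state 9, 3800 bp of state 14 and 600 bp of state 9, so that state 9 remained next to each promoter and state 14 lay between. At Lck, state 14 lay directly upstream of the state 9 segment in all 9 strains, and state 1 or 3 directly downstream.

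Of the 10 longest regions, 8 had starts of at least 2 genes within 5 kb, while those at Mrpl58 and Klhdc4 had 1. The longest ran 8000 bp at chr1:171271601-171279600 over B4galt3, a galactosyltransferase, and Ppox, an enzyme of haem synthesis. Of its 40 bins, 40 were in state 9 at the median strain, 29 in C57BL/6J and 13 in PWK/PhJ. The next spanned 7000 bp at chr14:55673801-55680800 over Gmpr2, a guanosine monophosphate reductase, and Tinf2, a subunit of the telomere-capping shelterin complex, with a median of 35 bins in state 9, 17 in C57BL/6J and 12 in PWK/PhJ. The region at Entr1 (6400 bp) and the one at Dalrd3 and Wdr6 (6400 bp) each had a median of 32 and 11 in PWK/PhJ. Those at Qars, the glutaminyl-tRNA synthetase, and Mrpl58, a mitochondrial ribosomal protein, spanned 6000 bp each with 6 and 5 bins in PWK/PhJ against a median of 30.

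PWK/PhJ was also lowest at the remaining 4 of the 10 longest. Cops3, a subunit of the COP9 signalosome, had a region of 5800 bp with 5 bins in PWK/PhJ and 28 or 29 elsewhere. Ccdc78 with Antkmt, and Pard6a with Enkd1, had 5200 bp each, with 9 and 11 bins in PWK/PhJ against a median of 26. At Klhdc4 (5400 bp) CAST/EiJ and PWK/PhJ had 1 bin each, and the other 7 strains had 26 or 27. PWK/PhJ was the lowest strain at all 10, tied with CAST/EiJ at Klhdc4. These are counts in the strains that chose the regions and were not tested.

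The loss in PWK/PhJ depended on the distance from the start. Over bins chosen in the other strains, PWK/PhJ was in state 9 at 57.7% of bins up to 1 kb from a start, 52.6% at 1 to 2 kb, 27.1% at 2 to 3 kb and 8.03% at 3 to 5 kb. The other 8 strains, each read the same way, had medians of 90.4%, 93.6%, 94.7% and 93.1% in those steps, with a lowest value of 79.0%. Among bins 5 to 50 kb from a listed start PWK/PhJ had 33.3% and beyond 50 kb 35.4%, distances that include genes without a listed start. The length of the chosen run made little difference: PWK/PhJ had 33.0% for single bins, 30.1% for 2 to 4 bins, 33.6% for 5 to 9 bins and 36.7% for 10 or more. With 1 segmentation for PWK/PhJ, a difference of the strain and one of its libraries cannot be told apart.

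**Figure D5:**
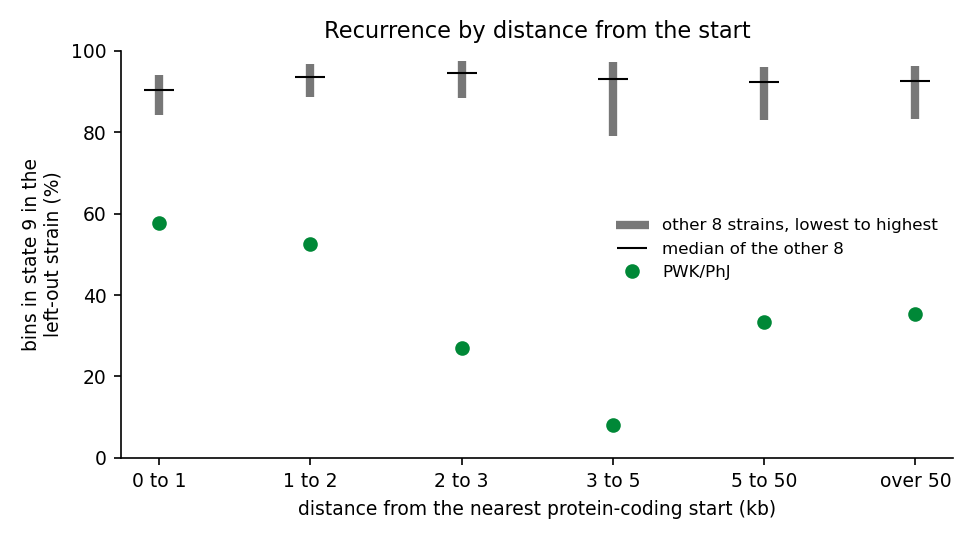
Percentage of bins in state 9 in the left-out strain (vertical axis) by distance from the nearest listed protein-coding start (horizontal axis, kb). Points are PWK/PhJ, grey bars run from the lowest to the highest of the other 8 strains and black ticks are their medians. PWK/PhJ falls from 57.7% within 1 kb to 8.03% at 3 to 5 kb, and the other strains stay at 79.0% or above.

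Stable and other state 9 bins were compared by gene position within each strain. The strains share most of the bins inside the regions, so the 9 values are not independent. The small SDs inside the regions partly reflect this sharing. Inside the regions 65.0% ± 0.591 of a strain's state 9 bins lay in a protein-coding gene body, against 60.3% ± 3.41 of its state 9 bins outside (higher in 8 of 9 strains, exact sign-flip permutation test, adjusted p = 0.0117), with 40.1% of all autosomal bins there. More than 5 kb from any gene lay 1.10% ± 0.0410 inside and 5.38% ± 1.13 outside (lower in 9 of 9, exact permutation test, adjusted p = 0.0117), with 41.7% of all bins there. Within 1 kb of a start lay 7.31% ± 1.67 inside and 8.77% ± 3.85 outside (SD, n = 9 strains; exact permutation test, adjusted p = 0.152), with 1.62% of all bins there. The last result turned on its window: within 2500 bp of a start the share was 19.0 points higher inside (exact permutation test, adjusted p = 0.0059), and within 500 bp it differed by -1.82 points (exact permutation test, adjusted p = 0.0059). PWK/PhJ again differed, with 11.8% of its state 9 bins inside the regions within 1 kb of a start, while the other 8 strains had 6.64% to 6.86%. It was also the highest outside the regions, at 17.1% beside 3.62% to 10.9% in the others.

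Only 188 regions (1.88%) had every bin more than 5 kb from any gene. Their median length was 400 bp, and 6 of them were in state 9 throughout in all 9 strains. State 14 took 20.6% ± 12.8 of the bins beside them, state 8 17.1% ± 3.17, state 1 8.39% ± 2.34 and state 3 6.91% ± 0.940, and state 4 took 1.86% ± 1.78 (SD, n = 9 strains).

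Gene groups differed in how often they had a region in the body or within 5 kb. Among all autosomal protein-coding genes, 8093 of 20661 (39.2%) had one, and the median number of member bins is 0 for every list below except the ubiquitous genes. Of 20 ubiquitously expressed genes, 12 had a region. Polr2a had 17 member bins, Chmp2a 16, Vps29 15, and Sdha, a subunit of succinate dehydrogenase, 12. Over that span Polr2a had 3 state 9 bins in PWK/PhJ, a median of 18 and 19 in NZO/HlLtJ, while Vps29 had 4 in PWK/PhJ, a median of 30 and 56 in NOD/ShiLtJ. At Chmp2a the lowest was 8 in PWK/PhJ and the highest 26 in 129S1/SvImJ, and at Sdha 2 in PWK/PhJ and 23 in NOD/ShiLtJ. With only bins in state 9 in all 9 strains, 2 of the 20 had a region, against 22.2% of all genes.

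None of the 19 autosomal hepatocyte-secreted and metabolic genes had a region, although of the 13 with a listed start, 11 were in state 3 there in at least 7 strains and all 13 in state 1 or 3. Alb and Apoa1, Apoa2 and Apob, the fibrinogen genes Fga and Fgb, and Ass1, of the urea cycle, are among them. Of 19 hepatocyte transcription factors 2 had a region: Nr1h3 (the oxysterol receptor LXR alpha, 10 bins) and Esrra (1 bin). The others, among them Hnf4a, Foxa1, Foxa2, Cebpa and Onecut1, had none, and 12 of the 19 with a listed start were in state 3. At Nr1h3 the strains had from 6 state 9 bins in PWK/PhJ through a median of 28 to 52 in NOD/ShiLtJ. With the looser rule of 5 of 9 strains, 1 hepatocyte-secreted gene and 7 of the transcription factors had a region. Under that rule at least 39.2% of all autosomal protein-coding genes have one by construction, because it keeps every member bin. Neither count is therefore above the share over all genes, and how far below it they lie is not given here.

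Of 20 inducible early response genes 7 (35%) had a region, near the 39.2% over all autosomal protein-coding genes. Ier3, an early response gene tied to cell survival, had 8 member bins, Fos, a subunit of the AP-1 factor, 6, the Krüppel-like factor Klf6 5 and Ier2 4, and Fosb, Atf3 and Fosl2 had 2 or 3. At Fos the strains had from 2 state 9 bins in PWK/PhJ through a median of 15 to 26 in NOD/ShiLtJ. Genes known from other tissues and stages rarely had one: 1 of 20 developmental regulators (Gata4, 2 bins), 1 of 20 neuronal genes (Dlg4, 2 bins) and 1 of 20 germline genes (Hormad1, 5 bins). Of the 13 developmental regulators with a listed start, 12 were in states 10, 12, 13 or 14 there. Within 1 kb of a start, 11.4% of 16456 genes had a region, and of the genes in all 11 lists, 1 inducible gene and 1 bile duct marker did.

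Markers of other liver cells were read in the same way, as a check of the labelled cell type. State 3 was found at the start of 0 of 5 endothelial, 0 of 5 Kupffer cell and leukocyte, 1 of 5 stellate cell and 0 of 5 bile duct markers with a listed start, beside the 11 of 13 hepatocyte-secreted genes. Of all 20084 listed starts, 7445 were in state 3 in at least 7 strains. A region was present at 1 of 8 endothelial markers (Pecam1) and 1 of 9 Kupffer cell and leukocyte markers (Cd68). Among stellate cell markers 0 of 8 had one, and among bile duct markers 1 of 7 (Muc1). The share over all autosomal protein-coding genes was 39.2%. The part of these other cells in the results was not tested.

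Stable state 3 promoters were rich in CpG with or without a region, and more of the flanked ones were bidirectional. The 300 bases around the start had a median GC content of 63.0% at the 4969 flanked starts and 64.3% at the 2476 others, and 57% at all starts. The ratio of observed to expected CpG was 0.850 and 0.810, beside 0.586. A start on the opposite strand within 1 kb was present at 23.4% of flanked starts, 29.1% of those with a region on both sides, 13.8% of the unflanked and 9.57% of all. The median gene length was 22576 bp for flanked and 27029 bp for unflanked starts. All promoters of the table enter these shares, and they are descriptions with no test.

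Motif matches were counted in the same 300 bases, on both strands. The ETS site CCGGAAG was present in 28.0% of flanked and 17.2% of unflanked stable state 3 promoters, in 33.8% of those with a region on both sides, and in 11.9% of all promoters. The NRF1 motif GCGCATGC had 7.65%, 5.53% and 3.55% in flanked, unflanked and all promoters, and the YY1 site AAGATGGCG 4.69%, 3.27% and 1.83%. The TATA box TATAAA was present in 4.43%, 6.87% and 12.7%, and the nuclear receptor motif AGGTCA, to which PPAR proteins bind, in 9.12%, 15.2% and 14.7%. The GC box GGGCGG did not set them apart, at 71.9% and 72.6%, nor did the CCAAT box CCAAT, at 38.5% and 40.2%. The Wdr46 promoter shown above holds the ETS letters because it was picked for them. A match is a description of letters and not a bound site.

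The other 9 motifs marked by capitals were the E-box CACGTG, the CRE TGACGTCA, the AP-1 site TGACTCA, the FOXA site TGTTTAC, the HNF4A site CAAAGTCCA, the C/EBP site TTGCGCAA, the SRF core CCATATTAG and 2 forms of the CTCF core, AGGTGGCAG and AGGGGGCGC. In flanked, unflanked and all promoters the E-box was present in 10.6%, 11.9% and 7.89%, the CRE in 4.25%, 3.63% and 2.30%, and the AP-1 site in 2.09%, 3.43% and 4.70%. The FOXA site was present in 2.29%, 2.83% and 3.04%, the HNF4A site in 0.242%, 0.525% and 0.463%, and the C/EBP site in 0.403%, 0.283% and 0.219%. The SRF core had 0.0805%, 0.0808% and 0.0797%, and the CTCF forms 0.725%, 0.727% and 0.792%, and 2.29%, 2.67% and 1.77%.

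The regions also held 18 of the 919 annotated microRNA hairpins (1.96%), while they held 0.406% of autosomal bins. The 18 are not all separate places, as Mir497 and Mir497b overlap. The bins are also not matched for nearness to genes: 1.13% of member bins and 41.7% of all autosomal bins lay more than 5 kb from any gene. Among the 18 hairpins were the neighbours Mir25 and Mir93, which lie in an intron of Mcm7, the pair Mir195a and Mir497, and Mir324. Their main mature forms are shown, from RefSeq (GRCm38.p6), because 2 of them share a seed, which is bases 2 to 8 and in capitals.
mmu-miR-25-3p: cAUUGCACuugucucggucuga
mmu-miR-93-5p: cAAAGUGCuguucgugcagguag
mmu-miR-195a-5p: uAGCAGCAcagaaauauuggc
mmu-miR-497a-5p: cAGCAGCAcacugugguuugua
The seeds of miR-195a-5p and miR-497a-5p are the same, and those of miR-25-3p and miR-93-5p differ from it and from each other.

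The density of regions followed the density of genes across chromosomes. It ran from 2.64 regions per Mb on chromosome 14 through a median of 3.803 to 6.41 on chromosome 11. Chromosomes 17 and 19 came next, at 6.20 and 6.07. Per protein-coding gene the range was narrower, from 0.38 to 0.57 regions. Across the 19 autosomes the density of regions and that of protein-coding genes had Pearson's r = 0.90 and Spearman's rho = 0.93, a description over chromosomes that share the same 9 segmentations.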

How the data were processed

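Per the file headers, the deposited data are 1 chromatin state segmentation per strain, in which the authors gave each stretch of the genome the number of 1 of 14 states; the values are categories, not counts or signal. A combined table was checked byte for byte: it held all 9 strain tables and nothing else. The submitters' processing notes name FastQC 0.11.5, MACS 1.4.2 and the build mm10, without roles. The aligner, the segmentation program, the depth and the mark content of the states are not given in the sources used here, so no interval for counting error is given.

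Segments were written as 200-bp bins with Python 3.11.15, NumPy 2.4.6 and pandas 2.3.3. Genes and starts came from RefSeq tables of GRCm38.p6. The strain was the unit (n = 9). Tests were two-sided exact sign-flip permutation tests over strains (512 sign patterns), with Benjamini-Hochberg adjustment within each family, at 0.05, and the code was tested on simulated data. The members, gene lists and tests were chosen with earlier results of these data known. The comparisons of borders by side and of start states, the profiles around starts and the printed promoters that regions flank or leave free were added after these data were seen. The genes named were the 10 with the most member bins within 1 kb of a start, those at the 10 longest regions, and up to 4 per list with the most member bins, with further list members named for completeness after their values were seen. Some list members and a motif are not reported here. For genes with several starts, the list counts of start states used the one with the lowest coordinate. Promoter sequence was limited to the 250 bases before the start; promoters that overlap another gene were not printed. Alternatives were other strain thresholds, windows and merging rules, and each strain left out in turn.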

Additional observations from a re-analysis of the deposited data

Results flagged for a closer look

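Of 24 sets of 9 strain values, 6 had a strain whose gap to the nearest other, divided by the whole range, was above Dixon's 95% critical value, while chance gives about 1 in 20. PWK/PhJ was that strain in 4 of them. Its recurrence of state 9 when left out was 33.6%, beside 86.0% to 96.4% in the others, and its recurrence of state 8 was 67.0%, beside 82.7% to 95.6%. Directly beside the regions it had 0.470% state 2 and 3.20% state 6, beside at most 0.0799% and 0.460% elsewhere. C57BL/6J had 0.04995% state 5 beside the regions and WSB/EiJ had 0.00999% state 10, where 1 bin is worth 0.00500%.

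Chromosome X, which the rule leaves out, held 18 regions by the same count of strains, or 0.105 per Mb, below the 2.64 per Mb of the sparsest autosome.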

How the results depend on the processing

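Of 389 recomputed values over 45 results, 345 kept their direction and their side of the threshold, or stayed within 1.5 times of a count. With all 9 strains required there were 4361 regions and 11565 bins, and with 5 of 9 there were 81830 bins. Requiring all 9 gave 19.2% of starts and 22.2% of genes with a region, by construction of the stricter rule; this choice was made after seeing the data. It also turned 3 values: state 1 beside the regions to -0.430 points against its share, state 12 to -0.0639, and the share within 1 kb of a start to 1.95 points higher inside, while the gene body difference no longer passed at 2.10 points. Reading 5 bins on each side turned state 5 to 0.0264 points above its share and let state 12 pass at 0.0903. Within 1 kb of a start, the difference passed at -1.82 points with a 500 bp window and at -2.47 points against bins more than 1 kb from any region, and turned to 19.0 points with a 2500 bp window. The cause of these shifts was not tested. State 9 minus state 8 recurrence turned to 0.964 points when 5 of the other 8 were required, and state 9 minus state 6 to -0.765 points with a match within 1 bin. Leaving out each strain in turn gave a recurrence of 84.4% to 92.2%, and differences of 0.197 to 7.04 points against state 4, -1.11 to 5.96 points against state 6 and -2.16 to 3.00 points against state 8, the highest without PWK/PhJ. States 1 to 3 beside the regions against beside stable state 6 ranged from -0.538 to 0.205 points. State 5 beside the regions ranged from -0.0181 to -0.0125 points and did not pass without 129S1/SvImJ, CAST/EiJ, DBA/2J, NZO/HlLtJ or PWK/PhJ. The share within 1 kb of a start ranged from -2.02 to -0.979 points and passed without NOD/ShiLtJ. No paired analysis was possible by mouse number, because the mice of a strain are joined in 1 segmentation; the tests compare values within each strain. Depth is unknown, so a state missing in 1 strain cannot be set against the reads behind it.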
